A study of Mus musculus with 6 samples.

Results

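The genes described here encode the factors that start and extend protein chains on the ribosome, read in mouse neutrophils with and without lipopolysaccharide (LPS). They were chosen by name: every gene whose symbol begins with Eif or Eef and a number, leaving out pseudogene and antisense symbols and the Eif2ak kinases. The rule found 63 of the 38739 genes in the table, 54 of them initiation factor (Eif) genes and 9 elongation factor (Eef) genes. Neutrophils from the peritoneum of C57B/L6 mice with a cGAS knockout were kept in medium alone (untreated, n = 3) or with LPS (n = 3), both for 2 h, and RNA sequencing was run on each sample. All 6 samples carried the knockout, no wild-type sample is part of the comparison, and the cells were drawn into the peritoneum with thioglycollate, per the methods of the study. The LPS dose was 500 ng/mL in the sample labels, and the methods state another. Nothing in the labels says that replicates came from separate mice or cultures, so the p-values below measure the spread between these samples, which may be technical.

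Translation starts when the cap-binding complex eIF4F (eIF4E, the helicase eIF4A and the scaffold eIF4G) brings an mRNA to the small ribosomal subunit, which carries eIF3, eIF1, eIF1A and the initiator tRNA bound to eIF2. The subunits join with the help of eIF5 and eIF5B, eIF2B reloads eIF2 with GTP, and the 4E-binding proteins hold eIF4E back. During elongation eEF1A delivers aminoacyl-tRNAs, the eEF1B complex recharges eEF1A, and eEF2 moves the ribosome along the mRNA by 1 codon. Neutrophils make cytokines and other proteins within hours of meeting LPS through Toll-like receptor 4, and part of that output is regulated at translation.

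The name of the deposited table calls the values normalized counts. Its values were not whole numbers and were taken here as scaled TPM, a length-corrected measure (TPM) averaged across each gene's transcripts and scaled by a factor for the sample, which the pattern of decimals shows directly in 1 sample. If so, levels of different genes cannot be ranked against each other, while changes of 1 gene between samples can be read. Summed over all genes, the values came to 603599 to 713384 for untreated and 404675 to 465904 for LPS samples, and protein-coding genes held 21.0 to 28.3% of that sum without LPS and 49.7 to 58.9% with it. Read depth is unknown, so no counting error can be given. Cgas was read at 0.180 to 0.307 untreated and 0.0286 to 0.184 after LPS. Among markers of the labelled cells, 10 of 12 neutrophil genes were in the table, none of them at 0 throughout, and they summed to 9570 to 27100 untreated and 14800 to 49700 after LPS. S100a8 and S100a9 carried most of that sum. Cxcr2, called lower, went from between 39.4 and 120 to between 7.10 and 23.6. Csf3r went from between 251 and 525 to between 138 and 233, and Ltf from between 3.04 and 9.18 to between 2.27 and 2.95. Each of these was without overlap. S100a8, S100a9, Mmp8, Mmp9, Itgam, Ngp and Camp overlapped between the groups. The 7 macrophage and monocyte markers in the table, of 10 listed, summed to 165 to 195 untreated and 266 to 414 after LPS, without overlap, and Cd68 alone made up most of that (157 to 179 and 230 to 381). In this list 1 marker was called higher. C1qb was higher in each LPS sample, at 0.712 to 4.75 untreated and 17.3 to 23.9 after LPS. Ccr2 was lower in each LPS sample, at 2.57 to 9.75 untreated and 0.581 to 1.68 after LPS. C1qa, C1qc, Mertk and Timd4 overlapped between the groups. A further 4 lists overlapped between the groups, namely B cell (4 of 5 markers, 279 to 1080 and 261 to 793), T cell (5 of 5, 10.8 to 14.8 and 4.76 to 12.1), mast cell (3 of 5, 4.69 to 40.8 and 5.05 to 49.1) and eosinophil (5 of 5, 3.10 to 8.52 and 2.02 to 5.31, with Epx listed at 0 in every sample). A pair of haemoglobin genes, of 3 erythroid markers, summed to 16.3 to 1710 and 90.1 to 2550. The part of these cells in the results below was not tested, and in bulk RNA fewer cells of a type and less RNA per cell cannot be told apart.

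Of the 63 translation factor genes, 53 had a value above 0 somewhere and entered the fit. The other 10 were listed at 0 in all 6 samples, 9 of them copies of the Eif1ad family and the other Eif4a3l2. Of the 53, 2 were called higher with LPS, Eif4g2 and Eef1e1, and none was called lower. A call needs a limma p under 0.01 before adjustment and more than 2 on the log2 scale. The same call was reached by 1.69% of all 23049 genes tested in the higher and by 1.31% in the lower direction. By Benjamini-Hochberg adjusted p under 0.05 in the same limma fit, those same 2 genes were higher and 1, Eif1ad18, was lower, against 0.894% and 0.946% of all genes tested. With any 1 LPS replicate left out, no member passed that adjusted limit, while both calls stood. Unadjusted p under 0.05 was met by 14 members in the higher and 3 in the lower direction, against 10.3% and 6.66% of all genes. The signs leaned upward: 38 members had a positive and 15 a negative log2 fold change, with a median of 0.53 on the log2(value + 1) scale, where 52.9% of all genes were positive and 47.1% negative with a median of 0.01. Every LPS value was above every untreated value for 16 members and below for 4, against 13.1% and 9.75% of all genes. Among members with a mean of at least 1 over the 6 samples, 32 of 43 were positive with a median of 0.87, compared with 54.2% of 9403 genes (45.8% negative) and a median of 0.13. In that better-measured set, 14 members were without overlap in the higher and 4 in the lower direction, against 19.1% and 15.2% of genes. Of the 53 members tested, 52 are annotated as protein-coding, and protein-coding genes leaned upward too. In the same fit 2.40% of 12018 protein-coding genes were called higher and 0.366% lower, and 59.5% were positive with a median of 0.05. Among 5894 of them with a mean of at least 1, 64.9% were positive with a median of 0.37, and 24.6% were without overlap in the higher and 9.89% in the lower direction.

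Part of this upward lean moves with the scaling. When each sample was rescaled to the same protein-coding sum, the median log2 fold change of all genes went from 0.01 to -0.04 and that of protein-coding genes from 0.05 to -0.01, while the members' median fell from 0.53 to 0.24, with 32 positive and 21 negative. Centring each sample on its median moved all genes to -0.19 and the members to 0.33, with 34 positive and 19 negative. Of the 53 genes 7 changed sign under at least 1 of these scalings or under quantile normalization, namely Eef2k, Eif1ad13, Eif2b2, Eif4a3l1, Eif4enif1, Eif4g3 and Eif5, and each of them had a fold change between 0.02 and 0.40 on the deposited scale. Directions given below for other translation factor genes held under every scaling tried.

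**Figure D1:**
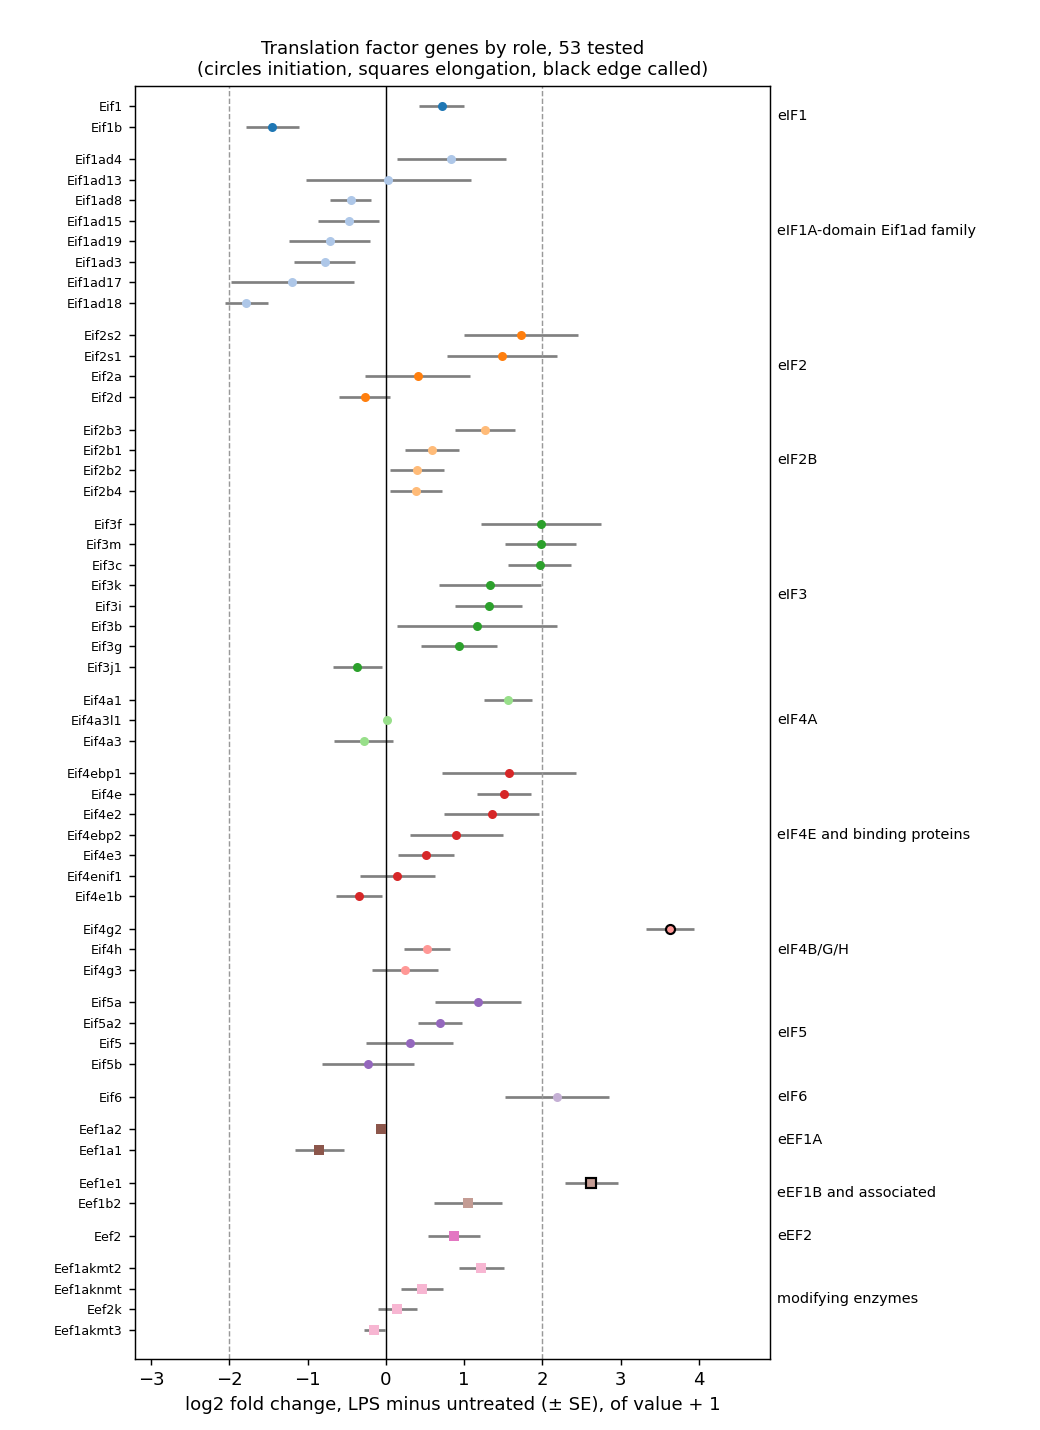
Log2 fold change (LPS minus untreated, on the log2(value + 1) scale, x axis) of each of the 53 tested translation factor genes, grouped by role, with bars for the standard error; circles are initiation and squares elongation factors, black edges mark the called genes, and dashed lines stand at -2 and 2. Eif4g2 at 3.63 and Eef1e1 at 2.62 lie farthest right, and Eif6 at 2.18, not called, also lies beyond the line at 2. Of the 8 eIF3 subunits 7 lie right of 0, and the Eif1ad family lies mostly left of 0.

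Taken by class, which follows the symbol and not the known role, 44 initiation factor genes were tested and 1 was called higher. Their median log2 fold change was 0.56, with 32 positive and 12 negative, and without the Eif1ad family it was 0.80 over 36 genes, 30 of them positive. The 9 elongation genes, with their modifying enzymes, included 1 called higher and had a median of 0.47, with 6 positive and 3 negative.

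The largest change was in the scaffold group. Eif4g2 (also known as DAP5, an eIF4G relative that lacks the eIF4E-binding region and serves cap-independent and re-initiation events) lies on the minus strand of chromosome 7, at chr7:110666957-110682244 in GRCm39. It was at 2.82, 5.08 and 3.79 in untreated replicates 1 to 3 and at 56.2, 65.5 and 54.3 in LPS replicates 1 to 3. The lowest LPS value was thus well above the highest untreated one, and the means differed 15.1-fold. Its log2 fold change was 3.63 ± 0.30 (SE, n = 3 a group, 95% interval 2.89 to 4.37, limma, Benjamini-Hochberg adjusted p = 0.0106). A small nucleolar RNA gene inside Eif4g2 on the same strand, Gm23262, shares 150 identical bases with an annotated Eif4g2 transcript and was listed at 0 in each untreated sample and at 34.8, 35.8 and 0 after LPS. How reads were shared between them was not tested. The other members of the group had smaller values: Eif4g3, a canonical scaffold, had a log2 fold change of 0.24 ± 0.42 (its sign turned under protein-coding rescaling), and Eif4h, which helps the helicase eIF4A, one of 0.53 ± 0.29 without overlap between groups. The scaffold Eif4g1 and Eif4b lie among 23 factor genes in the GENCODE annotation that were not analysed here, all of them on chromosomes 14 to 19, X or Y, so shares of all genes cover the analysed genes and not the whole genome. The other 62 annotated by the same rule were in the table, and 1 member, Eef1aknmt, had no match by name.

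**Figure D2:**
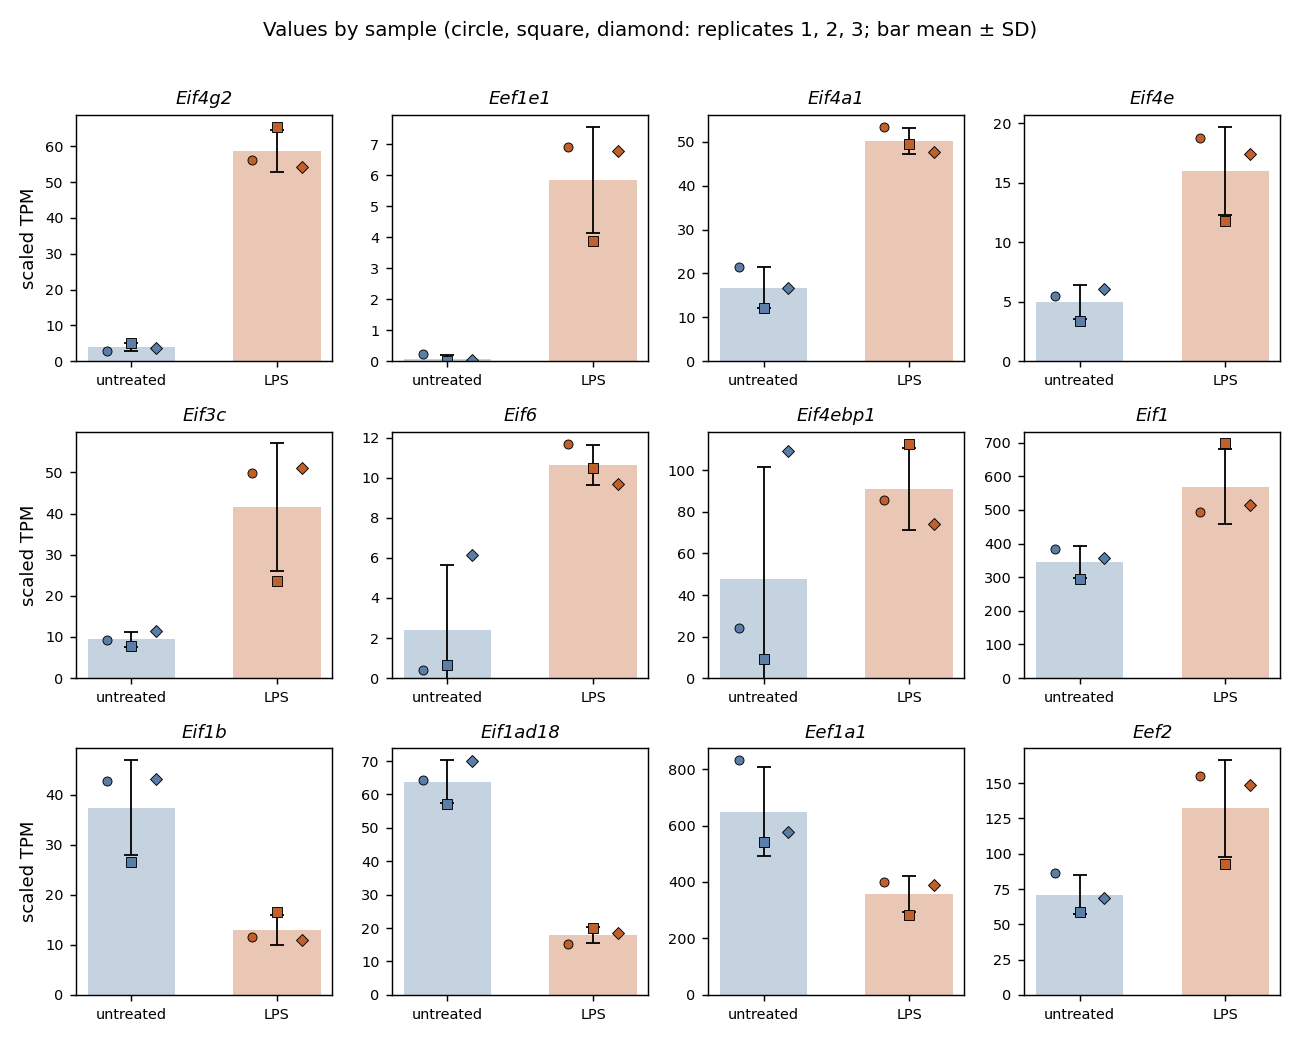
Values in scaled TPM (y axis, linear from 0) of 12 translation factor genes in the 3 untreated and 3 LPS samples; symbols mark replicates 1 to 3, bars the mean and error bars the SD. Eif4g2, Eef1e1, Eif4a1, Eif4e, Eif3c, Eif6, Eif1 and Eef2 have every LPS point above every untreated point, Eif1b, Eif1ad18 and Eef1a1 have every LPS point below, and Eif4ebp1 overlaps.

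In the cap-binding complex, the helicase gene Eif4a1 and the cap-binding gene Eif4e were each about 3 times higher in the LPS samples, with adjusted p above 0.05. Eif4a1 was at 21.5, 12.1 and 16.8 untreated and at 53.4, 49.4 and 47.7 after LPS, and Eif4e at 5.47, 3.39 and 6.07 and at 18.8, 11.8 and 17.4. Both were separated between the groups in all samples. The means differed 2.99-fold for Eif4a1 (log2 fold change 1.56 ± 0.31, limma adjusted p = 0.0693) and 3.21-fold for Eif4e (1.51 ± 0.34, limma adjusted p = 0.0913). Eif4a3, the helicase of the exon junction complex rather than of initiation, was at 15.5, 7.49 and 12.4 untreated and at 10.3, 6.72 and 10.9 after LPS, which overlap (log2 fold change -0.28 ± 0.38). Eif4a2 was not analysed here.

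Eif4a1 has a caveat of measurement. The annotated pseudogene Eif4a-ps4, which the naming rule leaves out, matches Eif4a1 at 98.5% over 1236 bases, and it was read at 194, 225 and 112 untreated and 415, 278 and 303 after LPS. Its values were also higher after LPS in every sample (log2 fold change 0.94 ± 0.37, limma adjusted p = 0.27). The ratio of the pseudogene to Eif4a1 within a sample differed between the groups by -0.67 on the log2 scale (exact permutation test, two-sided, p = 0.20, the smallest possible being 0.10). How reads were divided between the copies was not tested.

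Among the proteins that bind eIF4E, the translational repressor Eif4ebp1 varied most in the untreated cells. It stood at 24.1, 9.18 and 109 untreated and at 85.6, 113 and 74.4 after LPS. Untreated replicate 3 alone reached the LPS range, and the log2 fold change of 1.57 ± 0.86 had an adjusted p of 0.411 in limma. Per sample, the ratio of Eif4ebp1 to Eif4e was 4.40, 2.70 and 18.0 untreated and 4.56, 9.57 and 4.27 after LPS, a difference of -0.07 on the log2 scale (exact permutation test, two-sided, p = 0.90). Eif4e1b, a cap-binding relative known from oocytes, was low, between 0.719 and 1.72 in the 6 samples, with each LPS value under each untreated value and a log2 fold change of -0.34 ± 0.30. Over the group of 7 (Eif4e, its relatives, the binding proteins and the transporter Eif4enif1) 6 were positive, or 5 with the protein-coding sum set equal, and the median was 0.90.

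The eIF3 complex is the largest initiation factor and holds the mRNA and the other factors on the small subunit. Of its 8 genes read here, 7 had a positive log2 fold change under every scaling, with a median of 1.32, and none was called. Eif3f, Eif3m and Eif3c had nearly equal changes on this scale. Eif3f was at 11.1, 0.769 and 1.33 untreated and at 14.0, 10.4 and 16.8 after LPS (log2 fold change 1.98 ± 0.76, limma adjusted p = 0.263). The first untreated sample sat inside the LPS range, and without it the log2 fold change was 2.84 (limma adjusted p = 0.047, range over 15 alternatives 0.047 to 0.56). Eif3c and Eif3m, named after their values were seen, were tighter. Eif3c was at 9.26, 7.70 and 11.3 untreated and at 49.9, 23.7 and 51.1 after LPS (1.96 ± 0.40, limma adjusted p = 0.0713). Eif3m was at 2.93, 1.33 and 2.51 and at 15.6, 6.25 and 15.2 (1.98 ± 0.45, limma adjusted p = 0.0913). In both genes no sample crossed between the groups, and LPS replicate 2 had less than the other LPS samples. Eif3j1, the loosely attached subunit, had a log2 fold change of -0.36 ± 0.31, from 17.4, 21.4 and 19.6 to 17.9, 10.8 and 16.7, so the 2 groups overlapped. The remaining subunits Eif3b, Eif3g, Eif3i and Eif3k had log2 fold changes of 0.94 to 1.33, and only Eif3i among them showed no overlap.

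The eIF2 group brings in the initiator tRNA. Eif2s1, the alpha subunit whose phosphorylation throttles initiation, was at 8.55, 1.59 and 10.1 untreated and at 24.2, 8.85 and 23.3 after LPS (log2 fold change 1.48 ± 0.70, limma adjusted p = 0.343). Eif2s2, the beta subunit, was at 16.9, 1.94 and 3.34 and at 25.2, 12.7 and 21.8 (1.72 ± 0.73, limma adjusted p = 0.309). For both the lowest LPS value, in replicate 2, lay below the highest untreated one. Eif2a, which is not a subunit of eIF2 but delivers initiator tRNA in other settings, was between 0.439 and 4.95 untreated and 0.946 and 3.37 after LPS (0.41 ± 0.67). The 4 eIF2B genes in the table, subunits of the exchange factor that reloads eIF2 with GTP, were positive as deposited. Eif2b3 was at 0.498, 0.513 and 0.0817 untreated and at 3.07, 1.17 and 2.86 after LPS, apart in every sample (1.26 ± 0.38, limma adjusted p = 0.165). Eif2b2 changed by 0.40 ± 0.34, a value that went to -0.00 with the protein-coding sum set equal.

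Eif1 and Eif1b, genes of start-site choice, had fold changes of opposite sign, and neither passed the call or the adjusted threshold. Eif1, which keeps the scanning ribosome from settling on a wrong start codon, was at 384, 294 and 358 untreated and at 495, 698 and 514 after LPS (log2 fold change 0.71 ± 0.29, limma adjusted p = 0.285). Its close relative Eif1b, named here after its values were seen, was at 42.6, 26.5 and 43.1 and at 11.6, 16.5 and 10.9 (-1.45 ± 0.34, limma adjusted p = 0.097). Neither gene overlapped between the groups. Within each sample, the ratio of Eif1 to Eif1b values was 9.02, 11.1 and 8.30 untreated and 42.9, 42.4 and 47.3 after LPS. Since levels of different genes cannot be ranked here, only the change in this ratio can be read. It was 4.70-fold and does not depend on any single factor applied to a sample (exact permutation test, two-sided, p = 0.10, the smallest possible at 3 against 3). This pair was chosen after the values were seen. Eif1 has 20 near-identical partners in the annotation, 11 of them in the table, and the transcribed pseudogene Gm10157, at 97.1% identity over 347 bases, was at 446, 51.6 and 428 untreated and at 25.5, 30.1 and 18.6 after LPS. All LPS values of Gm10157 lay below its untreated ones, opposite to Eif1 (log2 fold change -3.10 ± 0.88, limma adjusted p = 0.14).

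**Figure D3:**
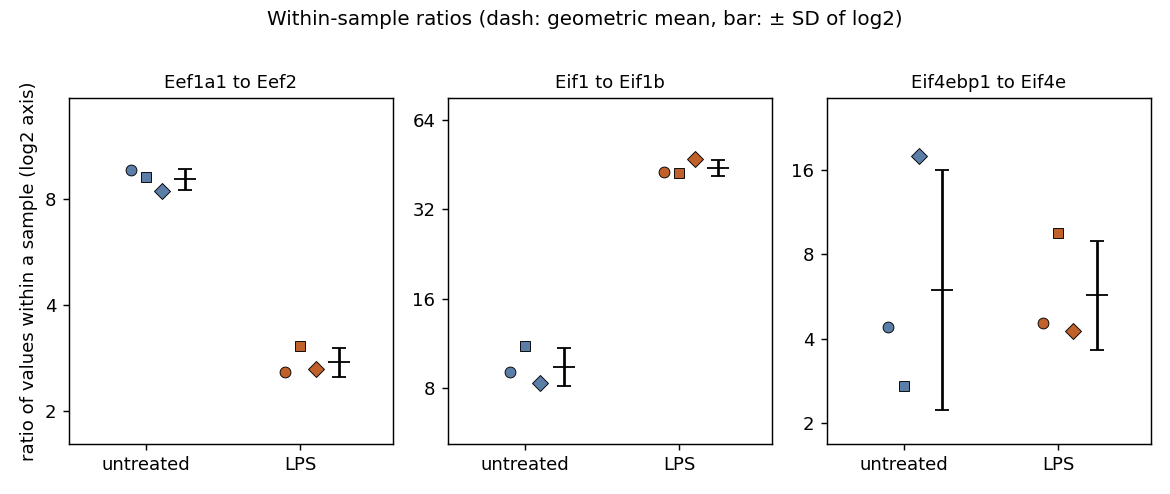
Ratios of the values of a pair of genes within each sample (y axes, log2 scale) for Eef1a1 to Eef2, Eif1 to Eif1b and Eif4ebp1 to Eif4e in the 3 untreated and 3 LPS samples; dashes are geometric means and bars the SD of the log2 ratio. The first ratio goes from between 8.44 and 9.67 to between 2.58 and 3.06 and the second from between 8.30 and 11.1 to between 42.4 and 47.3, both without overlap, while the third overlaps.

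The Eif1ad family is a cluster of gene copies on chromosome 12 with a domain like that of eIF1A, the factor that works beside eIF1. It makes up 17 of the 54 initiation genes, 8 of them above 0 anywhere, and 6 of those 8 had a negative log2 fold change (median -0.60). Eif1ad18 (chr12:88048491-88051974, plus strand, GRCm39) was at 64.2, 57.2 and 70.1 untreated and at 15.2, 20.0 and 18.6 after LPS. All 3 LPS values lay far below all 3 untreated values. Its log2 fold change of -1.78 ± 0.27 passed the adjusted threshold (limma adjusted p = 0.04) and fell short of the call's limit on size. Every copy of this family shares a near-identical stretch with 3 or more other genes, so the value of a single copy is uncertain.

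Among the factors of subunit joining, Eif6, which keeps the large ribosomal subunit from joining too early, was at 0.415, 0.647 and 6.15 untreated and at 11.7, 10.5 and 9.70 after LPS. The groups did not overlap, but untreated replicate 3 lay far nearer to the LPS samples than the other untreated ones did. The log2 fold change was 2.18 ± 0.66 (limma adjusted p = 0.163), and without that sample it was 2.93 (limma adjusted p = 0.039, range over 15 alternatives 0.039 to 0.4). Eif5a, counted with the initiation genes by its symbol, encodes the hypusine-bearing factor that helps ribosomes through difficult peptide bonds. It was at 18.4, 5.22 and 13.2 and at 32.6, 15.7 and 34.3 (1.18 ± 0.55, limma adjusted p = 0.339), with LPS replicate 2 inside the untreated range. Eif5b, the GTPase of subunit joining, was at 4.23, 19.8 and 5.18 and at 8.25, 4.88 and 6.75 (-0.23 ± 0.59). Its sign rested on untreated replicate 2, without which the log2 fold change was 0.40.

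In the elongation genes, Eef1a1 and Eef2 had fold changes of opposite sign. Eef1a1, which carries aminoacyl-tRNA to the ribosome, was at 832, 540 and 577 untreated and at 401, 284 and 390 after LPS. Eef2, the translocase, was at 86.1, 58.5 and 68.4 and at 155, 92.9 and 148. The groups were separate for both genes, in opposite directions, although neither passed the adjusted threshold (Eef1a1 -0.85 ± 0.31, limma adjusted p = 0.244, and Eef2 0.87 ± 0.33, limma adjusted p = 0.261). The ratio of Eef1a1 to Eef2 values was 9.67, 9.23 and 8.44 untreated and 2.58, 3.06 and 2.63 after LPS, where again only the change can be read. It was 3.31-fold lower after LPS, with a standard deviation of 0.10 and 0.13 on the log2 scale within the groups (exact permutation test, two-sided, p = 0.10, the smallest possible at 3 against 3). With the ratio of Eif4ebp1 to Eif4e this made 2 planned ratios, and with those added later 4. Eef1a1 shares near-identical stretches with 14 genes, 5 of them in the table. Of these, Gm5869 (96.3% over 1253 bases) went from 5.73, 17.5 and 6.50 to 0.827, 0.478 and 1.21 and Gm6170 from 6.44, 4.56 and 6.48 to 2.01, 1.73 and 1.08. Both pseudogenes were lower in every LPS sample. The other 3 were not: Gm13456, the copy with the highest identity (98.4% over 1319 bases), had a log2 fold change of -0.09, Gm9512 one of -0.86 with overlap, and Gm48338, above 0 in 1 sample, one of 0.42.

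Eef1e1 was the only gene of the elongation class that was called higher. It encodes AIMP3, or p18, an auxiliary protein of the multi-synthetase complex that is named for its likeness to eEF1 subunits, and lies on the minus strand at chr13:38828183-38843034 in GRCm39. Untreated replicates 1 and 3 were at 0.230 and 0.0416 and replicate 2 was listed at 0, and the LPS replicates were at 6.91, 3.88 and 6.78. No sample crossed, and the log2 fold change was 2.62 ± 0.34 (95% interval 1.81 to 3.44, limma adjusted p = 0.0274). Because the untreated values lie near 0, the size depends on the pseudocount: it was 5.11 with 0.1 and 1.08 with 5 in place of 1, and with 5 the call was lost. No other gene shares a near-identical stretch with it. Eef1b2, a subunit that recharges eEF1A, was at 25.7, 12.3 and 20.4 untreated and at 55.5, 25.2 and 44.3 after LPS (1.05 ± 0.44, limma adjusted p = 0.303), with LPS replicate 2 just below the top untreated value. Of the enzymes that modify the factors, the lysine methyltransferase Eef1akmt2 was at 0.326, 0.474 and 0.149 and at 2.08, 1.83 and 2.25, all LPS values higher (1.22 ± 0.29, limma adjusted p = 0.101). Eef2k, the kinase that inhibits eEF2, stayed below 1 in every sample (0.15 ± 0.25), a sign that turned with scaling.

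**Figure D4:**
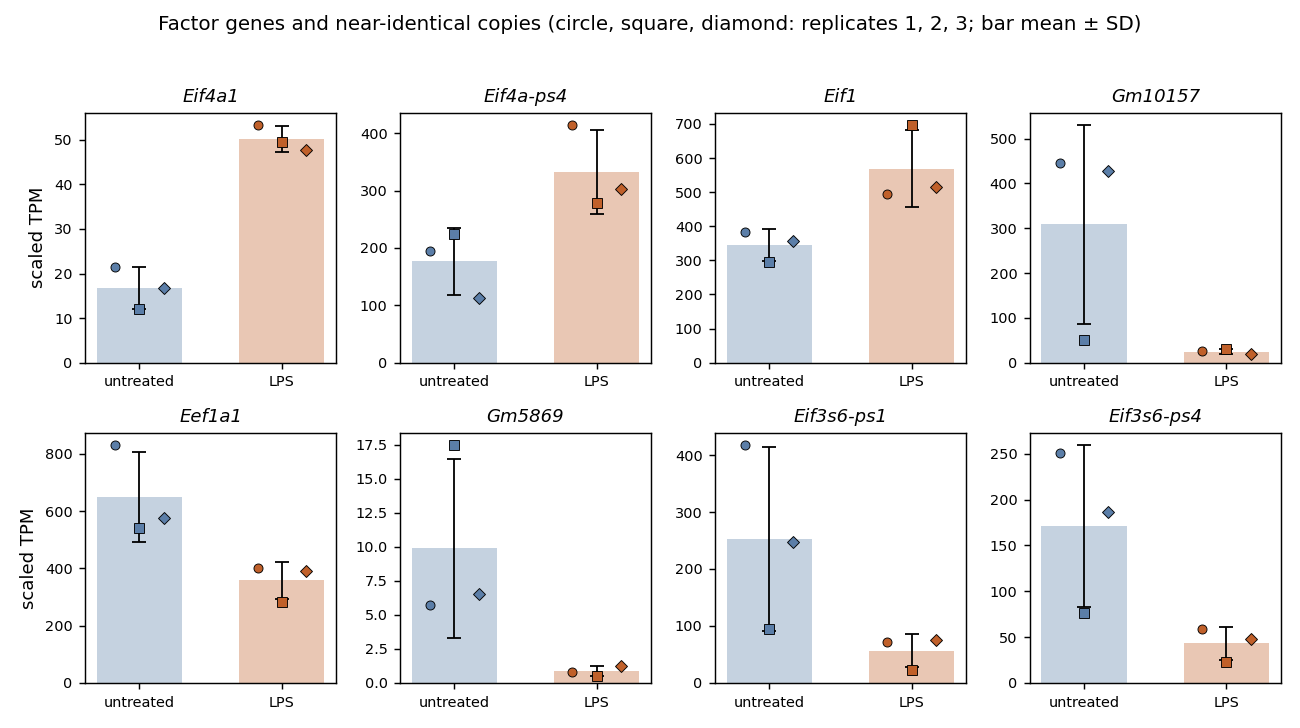
Values in scaled TPM (y axis, linear from 0) of 3 factor genes and of pseudogenes in the 3 untreated and 3 LPS samples. Symbols mark replicates 1 to 3, bars the mean and error bars the SD. Eif4a-ps4, Gm10157 and Gm5869 are near-identical to the factor genes shown. Eif3s6-ps1 shares a near-identical stretch with Eif3e, which is not shown, and no such stretch was found for Eif3s6-ps4. Eif4a-ps4 is higher after LPS as Eif4a1 is, Eef1a1 and Gm5869 are lower, Gm10157 is lower while Eif1 is higher, and Eif3s6-ps1 and Eif3s6-ps4 are lower in every LPS sample.

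Near-identical copies are common among these genes. A stretch of at least 150 bases at 95% identity or more with another gene was found in 40 of the 63 members, in 30 of the 53 tested and in 22 of the 45 tested outside the Eif1ad family. Overlaps add to this: 16 of the 53 tested members overlap a protein-coding gene on the opposite strand in the annotation, as Eif2s1 does Atp6v1d and Eif5a does Gps2. The kit was strand-specific, and whether quantification used the strand is not given in the sources used here. The rule left out 8 pseudogene rows of the table, 7 of them above 0 in some sample, and none was called. Eif3s6-ps1, a copy of the eIF3 subunit gene Eif3e (itself not analysed here), was at 418, 94.4 and 247 untreated and at 72.6, 22.7 and 75.0 after LPS (log2 fold change -2.07 ± 0.72, limma adjusted p = 0.22). Eif3s6-ps4 was at 251, 76.3 and 187 and at 58.4, 22.8 and 48.0 (-1.91 ± 0.58, limma adjusted p = 0.17). The direction of both was opposite to that of 7 of the 8 eIF3 genes proper.

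Variation among replicates was patterned. Over the 43 members with a mean of at least 1, the median coefficient of variation was 39.6% without LPS and 25.5% with it, compared with 72.2% and 30.7% over all genes at that level. LPS replicate 2 was the lowest of the LPS samples for 27 of the 43, where 42.3% of genes showed this, and untreated replicate 2 the lowest of its group for 24, where 37.1% of genes did.

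Promoter sequence was examined for letters shared by members, from 51 windows of 300 bases (250 before to 50 after an annotated start) that RefSeq on GRCm38.p6 holds for 37 of the 63 genes. The E-box CACGTG, the textbook recognition sequence of MYC and related factors (a palindrome, so 1 search covers both strands), was present in 13 of the 51 windows, 25.5%, against 7.15% of all 32851 windows and 10.8% of those of protein-coding genes with a mean of at least 1. By gene it was found in 11 of 37, or 29.7%, against 8.09% of all genes with a window and 12.7% of the expressed protein-coding ones. Of those 11 genes 10 had a positive log2 fold change, with a median of 0.87 and a range of -1.45 to 1.98. Of the 26 without the motif 20 did, with a median of 0.50 and a range of -0.85 to 2.62. The ranges overlap, and a difference between these sets was not tested. Stretches of 26 bases around the motif, in capitals, are shown for the cap-binding genes, for 2 eIF3 subunits and for 2 genes that went in opposite directions, Eef2 and Eif1b, since the motif occurs on both sides.
Eif4e (chr3:138527194-138527219, plus strand): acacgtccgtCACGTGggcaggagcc
Eif4a1 (chr11:69672597-69672622, minus strand): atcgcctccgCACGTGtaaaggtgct
Eif3f (chr7:108934337-108934362, plus strand): agatatgattCACGTGgtataaattt
Eif3k (chr7:28981917-28981942, minus strand): ggaaggaaatCACGTGgtagacaaaa
Eef2 (chr10:81176578-81176603, plus strand): ccggcgccgtCACGTGacgcacccaa
Eif1b (chr9:120492572-120492597, plus strand): tgcggacggtCACGTGgcggcggcgc

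The other letters searched were at shares near or below those of the backgrounds. TATAAA on either strand was found in 7.84% of members' windows, 13.6% of all windows and 7.12% of those of protein-coding genes with a mean of at least 1, and the NF-kB site in 3.92%, 4.51% and 5.35%, the 2 member windows being those of Eef1a1 and Eef2k. A terminal oligopyrimidine start places many mRNAs of the translation machinery under mTOR control. It was sought as a C followed by pyrimidines within 5 bases of the annotated start. Such a run was found in 13.7% of members' windows against 18.3% of all windows and 20.0% of the expressed protein-coding ones. The search misses runs farther from an annotated start, as where the start used by the cells differs. The share thus does not show that members lack such starts. Eef1a1, a classical gene of this type, and Eif3f are shown, with 30 bases around the start and the pyrimidine run in capitals. The run begins at position -5 from the annotated start in Eef1a1 and at -4 in Eif3f, so part of each lies before that start. Whether these letters begin the mRNA was not tested.
Eef1a1 (GRCm38.p6, chr9:78481705-78481734, minus strand): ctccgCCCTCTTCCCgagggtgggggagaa
Eif3f: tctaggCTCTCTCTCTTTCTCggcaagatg

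Such matches describe letters in these windows and say nothing about binding. Eif4g2, the gene with the largest change, had no window among those used.

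Other genes of translation were read in the same fit from lists of known members, with the same background of 1.69% and 1.31% called. The genes named from these lists kept their direction under every scaling tried. Of 4 genes of termination and recycling in the table, of 9 listed, 1 was called higher. It was Denr, which acts in re-initiation and recycling of the small subunit. Its values were 4.36, 3.68 and 1.62 untreated and 17.5, 19.6 and 18.5 after LPS (log2 fold change 2.27 ± 0.36, limma adjusted p = 0.046). The eIF2 kinases and phosphatase subunits, 7 of 9 in the table, included 2 called higher, both regulatory subunits that direct the phosphatase PP1 to eIF2 alpha. Ppp1r15a (GADD34) was at 17.3, 31.7 and 6.79 and at 195, 122 and 158 (3.23 ± 0.57, limma adjusted p = 0.053), and Ppp1r15b (CReP) at 4.76, 9.59 and 6.59 and at 25.7, 46.6 and 23.8 (2.03 ± 0.40, limma adjusted p = 0.07). The groups were apart for both. Nck1, an adaptor that assembles with eIF2 phosphatase, lay lower in every LPS sample, from 31.5, 66.6 and 32.3 to 10.8, 17.1 and 11.3 (-1.60 ± 0.41, limma adjusted p = 0.11).

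The 17 cytosolic tRNA synthetase and scaffold genes in the table, of 22 listed and 12 of them found under an older symbol, were mostly higher, 14 positive and 3 negative with a median of 0.99, and 1 was called. Gars, which charges glycine tRNA, was at 0.802, 0.373 and 8.43 untreated and at 42.5, 14.7 and 36.6 after LPS (3.37 ± 0.84, limma adjusted p = 0.11). Qars, for glutamine, was at 4.99, 3.62 and 3.65 and at 1.27, 1.35 and 1.28, the reverse direction and also without overlap (-1.13 ± 0.29, limma adjusted p = 0.11). No gene was called in 4 further lists. Of 9 of 14 genes of mTOR and MNK signalling 4 were positive with a median of -0.05, from Rheb, the GTPase that activates mTORC1 (2.04 ± 1.04), to Mknk2, an eIF4E kinase (-0.85 ± 0.35). Of 5 of 15 poly(A)-binding and cap regulators 3 were positive with a median of 0.49, from Larp1 (2.22 ± 0.71) to Pabpc4 (-0.54 ± 0.45). The 8 of 10 mitochondrial translation factors had a median of 0.87 with 7 positive, or 5 with the protein-coding sum set equal, from Mtres1 (1.38 ± 0.28) to Mrrf (-0.02 ± 0.53). Dhps and Dohh, the pair of enzymes that make the hypusine of eIF5A, had log2 fold changes of 0.42 ± 0.54 and 0.43 ± 0.77.

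**Figure D5:**
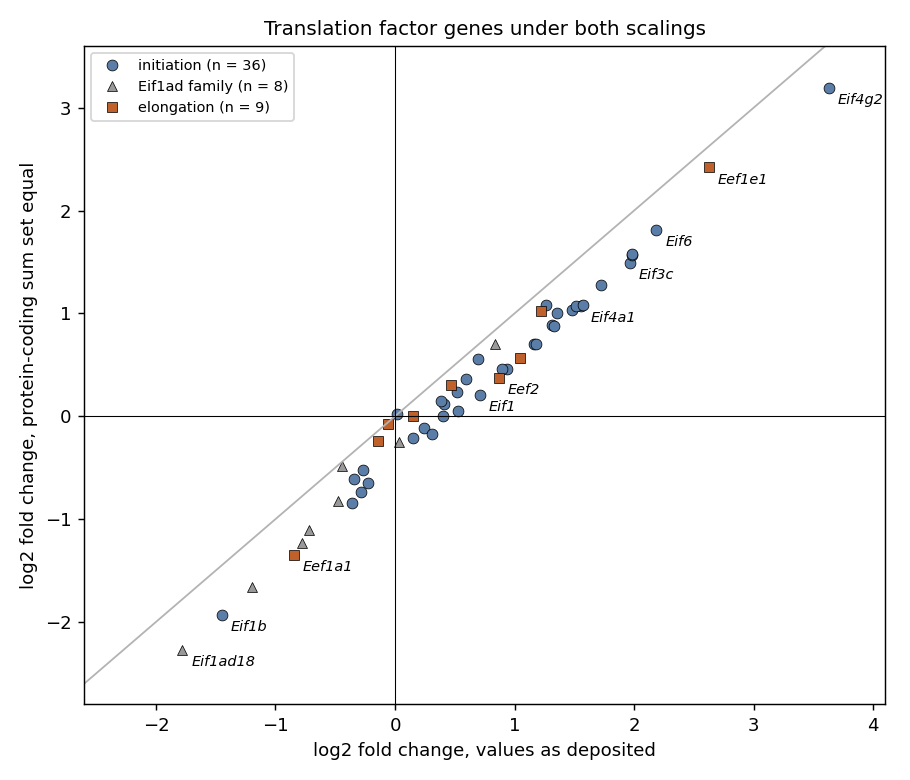
Log2 fold change of the 53 tested genes with values as deposited (x axis) and with each sample rescaled to the same protein-coding sum (y axis); circles are initiation genes outside the Eif1ad family, triangles that family and squares elongation genes, and the grey line marks equality. Most points lie below the line, so that Eif4g2 and Eef1e1 remain the farthest right and Eif1ad18 the lowest, while several small positive values become negative.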

How the data were processed

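RNA sequencing values of 3 untreated and 3 LPS-treated samples of cGAS knockout neutrophils were analysed, grouped by their titles. The submitters' processing notes name fastp, STAR, kallisto and the builds GRCm39 and mm10, and the methods add edgeR. The values deposited by the authors were taken as TPM from kallisto, as a mean over each gene's transcripts scaled by a factor for the sample. Of 3111 values of 1 to 1000 in untreated replicate 3, 66.8% ended within 6 decimals, and a further 27.4% did so once multiplied by a whole number of 2 to 16, while 0 of 3200 did in LPS replicate 1. Read depth cannot be recovered.

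Every gene above 0 in at least 1 sample (23049) was fitted with limma 3.58.1 (lmFit, eBayes with trend) on log2(value + 1), two-sided, so that fold changes of low genes are understated, and adjusted by Benjamini-Hochberg. A call needed p under 0.01 before adjustment and over 2 on the log2 scale, the limits of the study's methods. Coordinates and gene types came from GENCODE M39 on GRCm39, copies from blastn 2.17.0 (95% identity, 150 bases), and promoter windows from RefSeq. Columns of other comparisons were not used.

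Members and lists were chosen with earlier results of these data known. Genes named were those called, the members with the largest and smallest change in each role with a mean of at least 1, and 10 chosen for their function. Alternatives were 3 scalings, 2 pseudocounts, a filter, no trend, a replicate block, protein-coding genes alone (added later), other limits and leaving out each sample. Equal replicate numbers correlated at 0.0935, 0.199 and 0.0835, not all over 0.1, so the main fit did not treat numbers as pairs. Unequal numbers correlated at -0.131 to 0.0535, below all of those. The values were centred within each group first, which by itself lowers the unequal correlations where the equal ones are positive. The comparison therefore cannot decide whether numbers are pairs. A pairing by number remains possible, and the replicate block is the fit that allows for it.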

Additional observations from a re-analysis of the deposited data

How the results depend on the processing

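Over 17 alternatives, 395 of the values of the 24 named genes kept their direction and side of the limits, 8 passed them newly, 1 (Eef1e1 at pseudocount 5, log2 fold change 1.08) no longer did and 4 reversed. Those were Eif2b2 at -0.00 and Eif4g3 at -0.11 with the protein-coding sum set equal, Eif4g3 at -0.10 without untreated replicate 1 and Eif5b at 0.40 without untreated replicate 2. With 1 sample left out, Eif4g3 ranged from -0.10 to 0.44 and Eif5b from -0.60 to 0.40. The cause was not tested. Initiation factors called higher, 1 as reported, were 3 with a pseudocount of 0.1 (Eif3c and Eif3m added) and 2 with quantile normalization (Eif3c added), and 1 to 4 with a sample left out: 3 without LPS replicate 2, 4 without untreated replicate 1 (Eif2s2, Eif3f and Eif3m added), 2 without untreated replicate 2 (Eif4e2 added) and 4 without untreated replicate 3 (Eif3c, Eif4ebp1 and Eif6 added). Initiation factors called lower were 1 (Eif1ad18) with the protein-coding sum set equal, with an adjusted p under 0.05, and with that and a log2 fold change over 1. Elongation factors called higher were 2 with a pseudocount of 0.1 (Eef1akmt2 added) and 0 with one of 5. The median log2 fold change of initiation factors was 0.89 with a pseudocount of 0.1, 0.23 with one of 5, 0.23 with the protein-coding sum set equal, 0.36 when centred and 0.52 to 0.65 with a sample left out. That of elongation factors was 1.05 with a filter at a mean of 1, 0.88 and 0.14 with pseudocounts of 0.1 and 5, 0.26 when centred, 0.30 with the protein-coding sum set equal and 0.33 to 0.75 with a sample left out. With the protein-coding sum set equal, 0.954% of all genes were called higher and 2.26% lower, against 1.69% and 1.31%.

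With a replicate block, calls were the same 2 genes, 1 initiation and 1 elongation, with medians of 0.56 and 0.47, and no member had an adjusted p under 0.05 in limma. With any 1 LPS replicate left out, too, no member had an adjusted p under 0.05 in limma, while calls and medians moved as given above. Over 15 alternatives the limma adjusted p ranged from 0.0031 to 0.11 for Eif4g2, 0.0083 to 0.16 for Eef1e1 and 0.0067 to 0.19 for Eif1ad18, while their directions held. The fit of protein-coding genes alone and the ratios of Eif1 to Eif1b and Eif4a-ps4 to Eif4a1 were chosen after seeing the data. Unknown depth, averaging over transcripts, 3 samples a group and near-identical copies limit what single genes can show.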
